A study of Mus musculus with 4 samples.

Results

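The genes described here are 9 transcripts that mark naive and memory T cells, Ccr7, Il7r, Tcf7, Lef1, S1pr1, Klf2, Satb1, Cd27 and Il2rb. They were chosen by name, with earlier results of these data known, and they make up 9 of the 22911 genes with a symbol on the array and 13 of its 56605 probes. Ccr7, Tcf7, Satb1 and Il2rb each had 2 probes and the other 5 genes had 1. Their level was measured in CD8+ T cells and in mesenchymal stroma cells (MSCs) sorted from Bcr-Abl+ tumors of wild type (Wt) mice and of mice lacking Sipa1 (Sipa1-/-), with 1 array for each of the 4 conditions.

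All mice were of the C57BL/6Ncr strain and 8 weeks old, and the knockout was a property of the host, so it applied to both sorted populations. GFP+ hematopoietic progenitor cells (HPCs) carrying Bcr-Abl, the fusion kinase of chronic myelogenous leukemia, had been placed under the skin in Matrigel, and the tumors were taken on day 12. CD8+ T cells were sorted as GFP-, TCRb+ and CD8+ cells, and MSCs as cells negative for GFP, for the leukocyte marker CD45, for the erythroid marker Ter119 and for the endothelial marker CD31. The MSC gate for the arrays held no positive marker. The series used 5 mice of each genotype, and the sources used here do not say whether an array held RNA of 1 mouse or of several. With 1 array per condition there was no replicate check, no test was possible, and the spread between mice is unknown.

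Naive T cells and long-lived memory T cells circulate through lymph nodes and live on cytokines rather than on antigen. Ccr7 is the chemokine receptor that guides them into lymph nodes, S1pr1 is the sphingosine-1-phosphate receptor that lets them leave, and the transcription factor Klf2 drives S1pr1. Il7r encodes the receptor chain for the survival cytokine IL-7, Il2rb encodes the chain shared by the IL-2 and IL-15 receptors, and Cd27 is a costimulatory receptor bound by CD70. Tcf7 and Lef1 encode the paired T-cell factors TCF-1 and LEF-1, and Satb1 encodes a chromatin organizer of developing and naive T cells. Several of these genes have other known users. Il7r and Lef1 are active in developing B cells, and Klf2, S1pr1 and Lef1 also occur outside blood cells.

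Values are log2 of the background-corrected spot signal minus the 75th percentile of the array, so 0 is the 75th percentile and 1 unit is a 2-fold step. The 75th percentile was 16.4 to 19.7 times the median local background, and 60.3% to 65.3% of spots were well above background. A probe's signal on 10 spots of 1 array had a median SD of 0.0401 to 0.0447, which gives a spot-to-spot noise of 0.0585 for a difference. That noise holds no labelling or hybridization spread between arrays. Feature Extraction's own error model, at 10% of the signal of a bright spot, gives 0.20. Neither covers the spread between mice. As a check of the genotype labels, the 2 probes for Sipa1 read 3.43 and 5.40 in Wt and 1.39 and 3.73 in Sipa1-/- CD8+ T cells, and 3.05 and 5.03 in Wt and 1.46 and 3.78 in Sipa1-/- MSCs. Sipa1 was lower on both arrays labelled Sipa1-/-, with signal left. Whether the probes lie inside the deleted part is not known here.

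The sorts were checked against markers. All 16 T-cell identity genes were well above background on both CD8+ T cell arrays, and Cd8b1, the CD8 beta chain, read 7.29 in Wt and 7.41 in Sipa1-/-, against -2.56 and -1.26 in the MSCs. All 17 fibroblast genes were well above background on both MSC arrays, but also on both CD8+ T cell arrays. In units of the 75th percentile, their summed signal was 1481 in Wt and 2938 in Sipa1-/- MSCs. In CD8+ T cells it was 228 and 364. The MSC arrays also carried RNA that their gate should have left out. The summed signal of 18 B-lineage genes, in units of the 75th percentile and with spots averaged per probe, was 894 in Wt and 86.1 in Sipa1-/- MSCs, that of 12 pan-leukocyte genes was 301 and 186, that of the erythroid genes was 964 and 1024, and that of 10 granulocyte genes was 734 and 825. No B-lineage gene was missing from the Wt MSC array, and Rag1 was not well above background on the Sipa1-/- one. In bulk RNA such as this, fewer cells of a type and less RNA per cell cannot be told apart.

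RefSeq promoters (build GRCm38.p6) were found for Il7r, Tcf7, Lef1, Klf2, Satb1 and Cd27. The 3 printed next belong to the members with a single probe whose level differed by over 2-fold between the 2 MSC arrays. They run 5′ to 3′ on the gene's strand and stop before the annotated gene. They are chr15:9529942-9530126 on the minus strand for Il7r, chr3:131110047-131110296 on the plus strand for Lef1 and chr8:72318812-72319061 on the plus strand for Klf2. Capitals mark a match to TTCNNNGAA, the palindrome of STAT factors, the family through which IL-7 and IL-2 signal.
Il7r: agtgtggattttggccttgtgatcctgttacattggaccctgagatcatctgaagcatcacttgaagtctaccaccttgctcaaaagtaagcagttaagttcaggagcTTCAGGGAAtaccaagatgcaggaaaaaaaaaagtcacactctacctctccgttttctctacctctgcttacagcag
Lef1: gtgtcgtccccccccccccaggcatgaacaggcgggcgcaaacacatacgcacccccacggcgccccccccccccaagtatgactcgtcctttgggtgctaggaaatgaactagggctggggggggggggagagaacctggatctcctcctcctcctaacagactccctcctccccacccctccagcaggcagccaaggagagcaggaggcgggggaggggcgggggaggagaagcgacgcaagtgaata
Klf2: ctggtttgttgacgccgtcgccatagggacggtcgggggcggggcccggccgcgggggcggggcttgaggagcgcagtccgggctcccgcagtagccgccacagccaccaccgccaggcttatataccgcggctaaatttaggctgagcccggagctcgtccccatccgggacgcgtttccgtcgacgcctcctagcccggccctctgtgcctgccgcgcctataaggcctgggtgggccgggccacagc
The Il7r window held 43.8% G and C, the Lef1 window 66.4% and the Klf2 window 71.2%, around a median of 52.4% over 32851 promoter windows of 250 bases before the start. Both strands of 14 such windows of the 6 genes were searched for 6 motifs, and no matches overlapped. TTCNNNGAA occurred in Il7r and in 7.02% of all windows. CTTTGA, the core bound by TCF-1 and LEF-1, occurred at 1 of the 4 starts of Lef1 and in 13.8% of all windows. CACACCC, a core of KLF factors, occurred in Satb1 and Tcf7 and in 6.93% of all windows. CCGGAAG, an ETS core, occurred in Tcf7 and in 6.91%, and the E-box CACCTG in Satb1 and in 17.2%. GTAAACA, the FOXO core, occurred in none of the 14 and in 3.17% of all windows. These are matches of letters and not measured sites.

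In CD8+ T cells the 9 genes differed little between genotypes. All 9 were measured, and none was 2-fold higher or lower in Sipa1-/-, where 2.66% of 14339 measured genes were 2-fold higher and 1.4% were 2-fold lower. Differences ran from -0.30 for Il2rb to 0.21 for Ccr7, with 2 genes above 0 and 7 below. Their median was -0.16, against -0.02 over all genes, whose 5th to 95th percentiles ran from -0.44 to 0.70. Of the 13 probes, 7 differed by more than the software's error. The 2 higher were both of Ccr7, and the 5 lower were both of Il2rb and 1 each of Klf2, Satb1 and Tcf7. How many of all probes pass that error was not computed, so this count has no share to set it against. In MSCs the same genes differed widely. Of the 8 that were measured, Klf2 was at least 2-fold higher in Sipa1-/-, where 19.3% of 15298 genes were, and Il7r, Lef1 and Ccr7 were at least 2-fold lower, where 11.3% of genes were. Their median difference was -0.81, against 0.04 over all genes, with 5th to 95th percentiles of -1.68 to 1.85. Differences of Il7r and Lef1 lay outside that range.

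**Figure D1:**
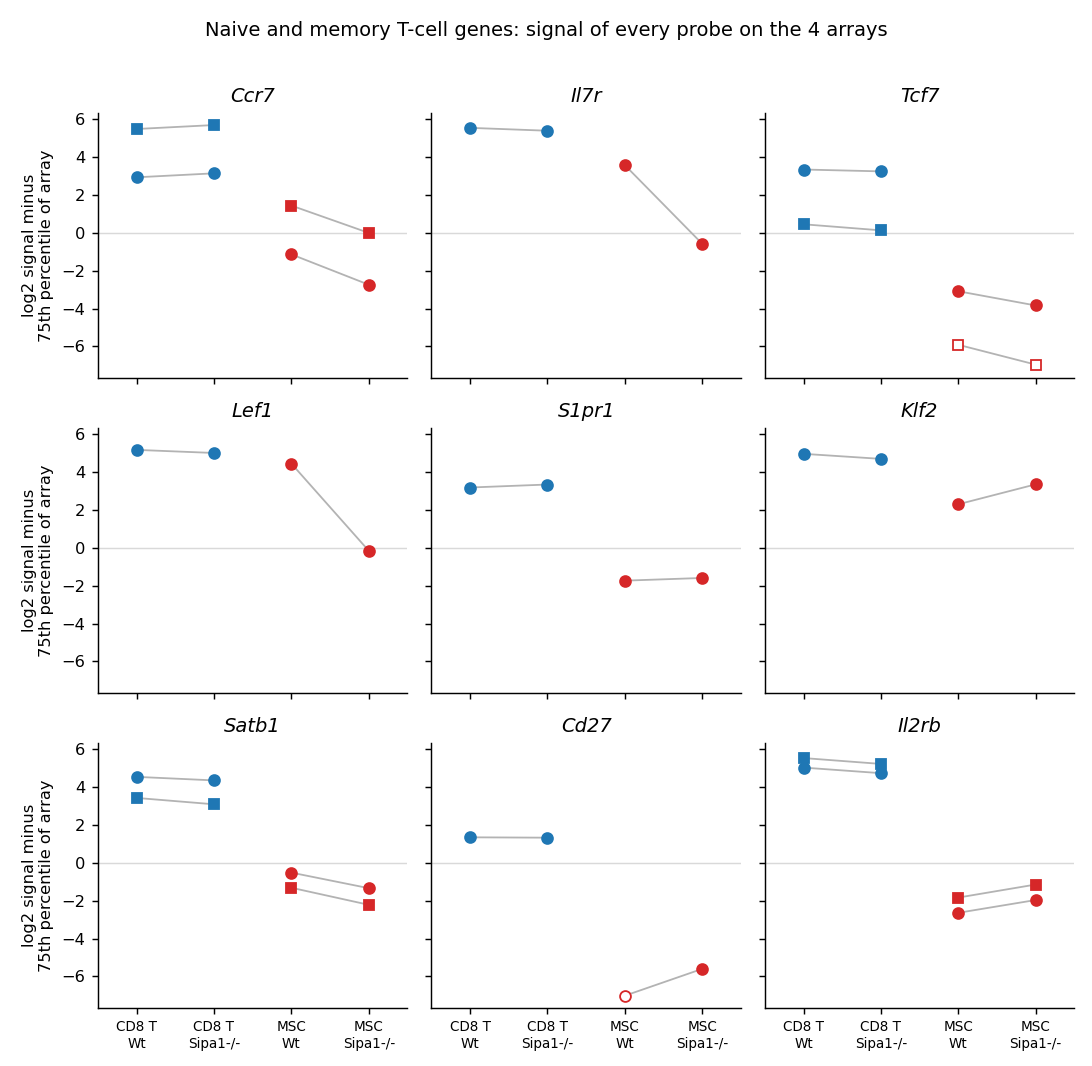
Signal of every probe of the 9 genes on the 4 arrays, as log2 signal minus the 75th percentile of the array (y axis). Circles and squares are the first and the second probe, blue is CD8+ T cells, red is MSCs, and hollow symbols were not well above background; grey lines join the 2 genotypes. The CD8+ T cell pairs are nearly level, while Il7r and Lef1 are lower on the Sipa1-/- MSC array, with differences of -4.16 and -4.61.

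**Figure D2:**
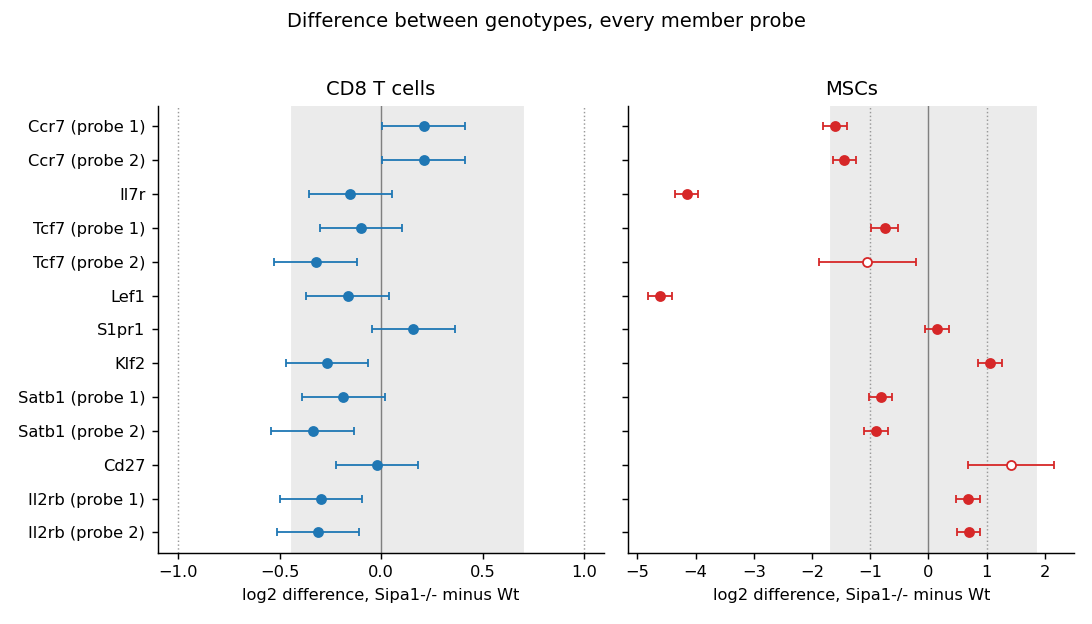
Log2 difference between Sipa1-/- and Wt (x axis) for each of the 13 probes in CD8+ T cells and in MSCs, on different x scales. Bars are the software's error of the difference, grey bands span the 5th to 95th percentile of all measured genes, dotted lines mark 2-fold, and hollow points were not well above background on at least 1 array. In CD8+ T cells no probe passes 2-fold, and in MSCs the points for Il7r and Lef1 lie left of the band.

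The trafficking genes were led by Ccr7, the receptor for lymph node homing. Its first probe (A_51_P420229) read 2.94 in Wt and 3.15 in Sipa1-/- CD8+ T cells, and -1.13 in Wt and -2.74 in Sipa1-/- MSCs. Its second probe (A_55_P2023542) read 5.49, 5.70, 1.45 and 0.0012 on the same arrays. Both probes were thus highest in Sipa1-/- CD8+ T cells and lowest in Sipa1-/- MSCs. Averaged over the probes, Ccr7 was 0.21 higher in Sipa1-/- than in Wt CD8+ T cells, which is about the software's error, and differed by -1.52 in the MSCs, where Sipa1-/- was 2.88-fold lower. CD8+ T cells exceeded MSCs 16.7-fold in Wt and 55.5-fold in Sipa1-/-.

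S1pr1, the exit receptor, read 3.19 in Wt and 3.35 in Sipa1-/- CD8+ T cells and -1.73 and -1.59 in the MSCs. Its genotype differences of 0.16 and 0.14 were both within the software's error. It was 30.3-fold higher in CD8+ T cells than in MSCs in Wt and 30.6-fold higher in Sipa1-/-, so its pair of cell-type differences, 4.92 and 4.94, was nearly equal. Klf2, the activator of S1pr1, took another course. It read 4.97 in Wt and 4.71 in Sipa1-/- CD8+ T cells, and 2.31 and 3.36 in the MSCs. It was the only measured member that was at least 2-fold higher in Sipa1-/- MSCs, by 1.05 or 2.08-fold, and in CD8+ T cells its difference was -0.27. The 2-fold step was lost when arrays were centred on their median (0.91) and with normexp background correction at an offset of 50 (0.94). Its excess in CD8+ T cells over MSCs was 6.34-fold in Wt and 2.54-fold in Sipa1-/-.

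Klf2 is also a gene of the endothelium. Of the 12 endothelial markers 11 were measured in the MSCs, with 7 higher and 4 lower in Sipa1-/-, and their summed signal was 9.07 in Wt and 15.5 in Sipa1-/-. Flt1, a VEGF receptor, read 1.30 and 3.36 and set that direction, since the sum without it was 6.61 and 5.24. Tek, the angiopoietin receptor, had a difference of 1.53 and Egfl7 one of -0.87. Pecam1, the CD31 of the gate, read -1.47 and -2.96. Fibroblast genes moved in the same direction as Klf2, with 15 of 15 measured genes higher in Sipa1-/- MSCs, 11 of them at least 2-fold, and a median of 1.58. Klf4, a related factor of stromal cells, was 1.84 higher. The part of these cells in the Klf2 difference was not tested.

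Of the cytokine receptors, Il7r had 1 of the 2 widest differences. Its probe (A_55_P2736590) read 5.55 in Wt and 5.40 in Sipa1-/- CD8+ T cells, 3.58 in Wt MSCs and -0.58 in Sipa1-/- MSCs. Only the Sipa1-/- MSC array was low. The MSC difference was -4.16, with Il7r 17.9-fold lower in Sipa1-/-, while the difference in CD8+ T cells, -0.15, was within the software's error. CD8+ T cells therefore exceeded MSCs 3.92-fold in Wt and 63.0-fold in Sipa1-/-.

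Il2rb ran the other way. Its first probe (A_51_P286496) read 5.04 in Wt and 4.74 in Sipa1-/- CD8+ T cells, and -2.64 and -1.96 in the MSCs. Its second probe (A_55_P2266178) read 5.54, 5.23, -1.83 and -1.14. On both probes the CD8+ T cell arrays lay far above the MSC arrays, and the Sipa1-/- array was the lower of the CD8+ pair and the higher of the MSC pair. The gene differed by -0.30 in CD8+ T cells, the lowest of the 9 genes, and by 0.68 in MSCs. It was 184.0-fold higher in CD8+ T cells than in MSCs in Wt, 110.4-fold with normexp, and 92.9-fold higher in Sipa1-/-. Il2rb is also used by NK cells, whose 8 marker genes summed to 2.02 in Wt and 2.52 in Sipa1-/- MSCs and to 211 and 210 in CD8+ T cells, where 2 of 8 were higher and 6 lower. Among these, Klrb1c had a difference of -2.03 in CD8+ T cells and was named after its value was seen. Nkg7, at 7.19 in Wt and 7.33 in Sipa1-/-, made up most of both CD8+ T cell sums. In bulk RNA, signal of NK cells and of the CD8+ T cells themselves cannot be told apart on these genes.

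Cd27, the costimulatory receptor, read 1.35 in Wt and 1.34 in Sipa1-/- CD8+ T cells, a difference of -0.02. In the MSCs it was not well above background in Wt, at -7.02, and just above in Sipa1-/-, at -5.60. With its Wt MSC level set to the lowest signal well above background on that array, it was 149-fold higher in Wt CD8+ T cells. In Sipa1-/- it was 122-fold higher in CD8+ T cells than in MSCs. With normexp this was 17.2-fold, and the offset of 50 by itself shrinks folds of dim probes. With the same lowest signal in Wt, the step between the MSC arrays was only 1.20-fold in favor of Sipa1-/-. Without that setting the log2 difference of Cd27 was 1.42, with a software's error of 0.74, but it rests on the Wt signal that was not well above background. Its ligand Cd70, named for that role after its values were seen, was not well above background in Wt MSCs either and read -5.36 in Sipa1-/- MSCs.

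The transcription factors parted from each other in the MSCs. Lef1 (probe A_55_P2076871) read 5.18 in Wt and 5.02 in Sipa1-/- CD8+ T cells, 4.46 in Wt MSCs and -0.15 in Sipa1-/- MSCs. Of the 9 genes it had the smallest cell-type difference in Wt, 0.73 or 1.65-fold, the one member under 2-fold there. It had the widest genotype difference, at -4.61 in MSCs, 24.4-fold lower in Sipa1-/-, and it was 36.0-fold higher in CD8+ T cells than in MSCs in Sipa1-/-. In CD8+ T cells Lef1 differed by -0.16, within the software's error.

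Tcf7, the partner of Lef1 in T cells, was low on both MSC arrays. Its first probe (A_52_P244702) read 3.35 in Wt and 3.25 in Sipa1-/- CD8+ T cells, and -3.08 and -3.84 in the MSCs. Its second probe (A_55_P2109633) read 0.46 and 0.14 in CD8+ T cells and was not well above background on either MSC array. The first probe was 86.5-fold higher in CD8+ T cells than in MSCs in Wt and 136.0-fold higher in Sipa1-/-. The second was 79.8-fold and 60.7-fold higher with its MSC level set to the lowest signal well above background on the array. With normexp the gene's excess was 40.9-fold in Wt and 45.3-fold in Sipa1-/-. Its difference between genotypes was -0.75 in MSCs (-0.28 with normexp) and, over both probes, -0.21 in CD8+ T cells. In CD8+ T cells its probes differed from each other by 0.22, and only the second passed the software's error.

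Satb1, the chromatin organizer, lay between them. Its first probe (A_51_P324228) read 4.55 in Wt and 4.36 in Sipa1-/- CD8+ T cells, and -0.51 and -1.33 in the MSCs. Its second probe (A_65_P16561) read 3.44, 3.10, -1.31 and -2.21. Both probes had the same order of the 4 arrays, with Sipa1-/- below Wt in each cell type. The difference of Satb1 between genotypes was -0.26 in CD8+ T cells and -0.86 in MSCs, and it was 29.9-fold higher in CD8+ T cells than in MSCs in Wt and 45.4-fold higher in Sipa1-/-, the latter 30.2-fold with normexp.

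Between cell types, 7 of 8 measured members were at least 2-fold higher in CD8+ T cells than in MSCs in Wt, where 12.8% of 14225 genes were, and 9 of 9 in Sipa1-/-, where 18.7% of 14300 genes were. None was 2-fold lower, where 17.3% and 21.9% of genes were. The median difference was 4.48 in Wt and 5.79 in Sipa1-/-, against 0.06 and 0.18 over all genes. These comparisons share the arrays of the genotype comparisons. The genotype difference in CD8+ T cells minus that in MSCs was 4.44 for Lef1, 4.01 for Il7r, 1.73 for Ccr7, 0.60 for Satb1, 0.54 for Tcf7, 0.02 for S1pr1, -0.99 for Il2rb and -1.32 for Klf2. With single arrays these differences between cell types were not tested. The Tcf7 value set 2 probes in CD8+ T cells against 1 in MSCs. On its first probe alone the genotype difference was -0.10 in CD8+ T cells and -0.75 in MSCs.

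**Figure D3:**
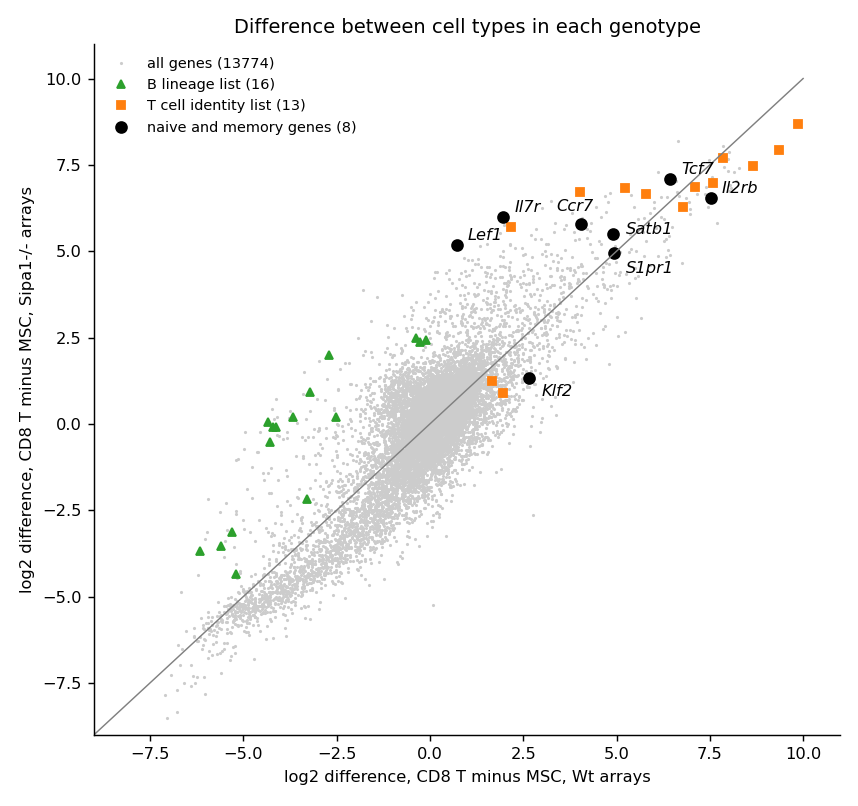
Log2 difference between CD8+ T cells and MSCs on the Wt arrays (x axis) and on the Sipa1-/- arrays (y axis) for genes measured in both; the diagonal marks equal differences. Black points are the 8 naive and memory genes measured in both, orange squares T-cell identity genes, green triangles B-lineage genes and grey points all genes. Lef1, Il7r and Ccr7 lie above the diagonal, as do the B-lineage genes, and Klf2 and Il2rb lie below it.

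Because Il7r and Lef1 are also genes of developing B cells, the B-lineage markers were set beside them. Of 18 such genes 17 were measured in the MSC pair, and all 17 were at least 2-fold lower in Sipa1-/-, from -5.80 to -1.03 with a median of -4.16. Vpreb1 and Vpreb3, chains of the pre-B-cell receptor, read 7.57 and 7.55 in Wt and 3.45 and 3.57 in Sipa1-/- MSCs. Cd79b, a signaling chain of the B-cell receptor, read 6.65 and 2.49. The difference of Il7r equalled the B-lineage median to within 0.01, Lef1 was further down, and Ccr7, Satb1 and Tcf7 were less far down. Of the 12 pan-leukocyte genes, 11 were lower in Sipa1-/- MSCs, 9 of them at least 2-fold, with a median of -1.54. Ptprc, which encodes the CD45 of the gate, read 2.68 and -1.17 on its 2 probes in Wt MSCs and 1.18 and -2.28 in Sipa1-/- MSCs. The part of B-lineage RNA in the differences of Il7r, Lef1 and Ccr7 was not tested.

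T-cell identity genes were mixed on the MSC arrays. Of 16 T-cell identity genes 13 were measured there, 9 higher and 4 lower in Sipa1-/- with a median of 0.66, and the summed signal was 72.0 in Wt and 105 in Sipa1-/-. Thy1 set the direction of the sum only, which without it was 29.4 in Wt and 11.5 in Sipa1-/-. Cd8b1, Cd3d, Cd3g and Thy1 were the 4 at least 2-fold higher, with Thy1 also a fibroblast gene, and Cd2, Lat, Zap70 and Lck the 4 at least 2-fold lower, led by Cd2 with -3.52. Cd8b1, Cd3d, Cd3g and Lck were named after their values were seen. Cd8a, Sh2d1a and Trat1 were not well above background in Wt MSCs. Il2rb, at 0.68, lay near the median of this list. Other lists were higher in Sipa1-/- MSCs too, with 9 of 9 macrophage genes higher (median 0.99, sums of 22.8 and 46.9), 6 of 6 measured CD4 and regulatory T-cell genes (median 1.07, sums of 1.83 and 2.83) and 3 of 4 measured lymphatic endothelial and reticular genes (median 0.49, sums of 22.4 and 45.3). Their medians in CD8+ T cells were 0.12, -0.04 and, for 2 measured genes, 0.55. In the lymphatic endothelial and reticular list, Pdpn was the brightest gene, at 4.40 in Wt and 5.49 in Sipa1-/- MSCs. Pdpn made up most of both sums of that list and set their direction. Mmrn1 went the other way, at 0.0018 and -4.81, and Flt4 and Lyve1 were not well above background on either MSC array.

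In the CD8+ T cell pair, the T-cell identity genes were level, with 9 higher and 7 lower of 16, none past 2-fold and a median of 0.01. Other material differed between these arrays. Fibroblast genes were higher in Sipa1-/- in 17 of 17 cases, 16 of them at least 2-fold, with a median of 1.58. Their summed signal was 228 in Wt and 364 in Sipa1-/-, and 62.7 and 188 without Thy1, which T cells express too. Granulocyte genes were lower in 8 of 10, 7 of them at least 2-fold, with sums of 639 and 337, and erythroid genes were lower in 6 of 6 measured, with sums of 27.9 and 12.6. None of the 9 naive and memory genes shifted by as much as the median of those 3 lists. The part of these cells in the small differences of the members was not tested.

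Other genes of the naive and memory program also differed little between genotypes in CD8+ T cells. Of 23 such genes, 7 were higher and 16 lower in Sipa1-/-, with a median of -0.09. None was past 2-fold, where 2.66% of all genes were 2-fold higher and 1.4% 2-fold lower. This was not particular to them. Of 12 pan-leukocyte genes, 3 were higher and 9 lower, none past 2-fold, with a median of -0.07. Among the brightest, Ltb, which encodes lymphotoxin beta, had a difference of 0.11, Socs3, a brake on cytokine signaling, of -0.71 and Dapl1 of -0.59. Genes of effector and tissue-resident T cells had more positive differences, with 21 of 27 higher and 6 lower, 2 of them at least 2-fold higher and a median of 0.36. These 2 were Pdcd1, the PD-1 receptor, at 1.10 and Entpd1, the ectonucleotidase CD39, at 1.02, named after their values were seen. The brightest of the list were near level, with Ccl5 at -0.09, the granzyme gene Gzma at -0.36, the chemokine receptor gene Cxcr3 at -0.07 and Gzmb at 0.36.

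In MSCs the same 23 naive and memory genes were split, 11 higher and 12 lower, with 4 up and 8 down by 2-fold or more and a median of -0.16. Over all genes in MSCs, 19.3% were at least 2-fold higher in Sipa1-/- and 11.3% at least 2-fold lower. Foxo1, the factor that drives Klf2 and Il7r in T cells, had a difference of -1.62 in the MSCs, where Klf2 was higher and Il7r lower in Sipa1-/-, and Ltb one of -1.96. Slamf6 and Bach2, which are shared by B and T cells, had differences of -4.63 and -3.64 and were named after their values were seen. Of the 27 effector and resident genes, 23 were measured in MSCs, 19 higher and 4 lower, with 12 at least 2-fold higher, Cd69, named after its value was seen, at least 2-fold lower at -2.39, and a median of 1.00. Their summed signal was 20.6 and 37.1, against 597 and 617 in CD8+ T cells.

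**Figure D4:**
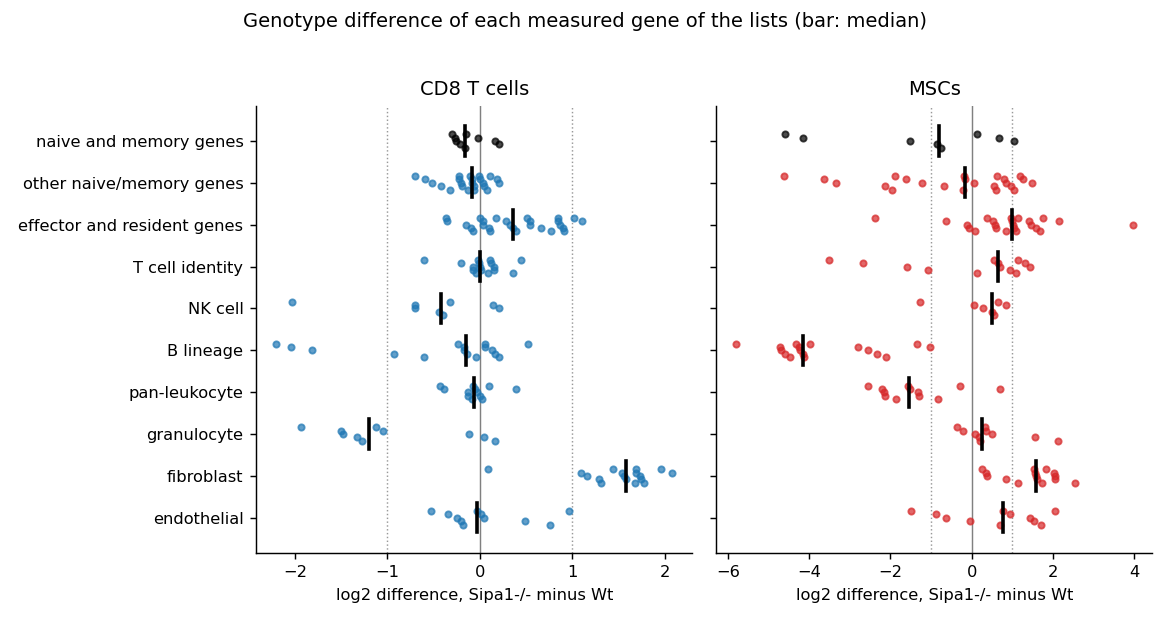
Log2 difference between Sipa1-/- and Wt (x axis, scales differ) of each measured gene in CD8+ T cells and MSCs, by gene list. Black bars are medians and dotted lines mark 2-fold. In CD8+ T cells the members have a median of -0.16 while fibroblast genes sit near 1.58, and in MSCs the B-lineage genes sit near -4.16 together with Il7r and Lef1.

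The ligands and partners of the 9 receptors and factors were measured too. Of 32 such genes, 28 passed in CD8+ T cells, 17 higher and 11 lower in Sipa1-/-, none past 2-fold, with a median of 0.08. Il2rg, the common gamma chain that pairs with both Il7r and Il2rb, read 5.95 in Wt and 5.94 in Sipa1-/- CD8+ T cells, and the kinase gene Jak1 5.30 and 5.28. In MSCs 29 passed, 15 higher and 14 lower, with a median of 0.12. Of these, 4 were at least 2-fold apart in each direction, where 19.3% of all genes were 2-fold higher and 11.3% 2-fold lower. Il7, the ligand of Il7r, was not well above background on either CD8+ T cell array and was 1.29 higher in Sipa1-/- MSCs, at -3.25 against -4.54 in Wt. Il15, a ligand that signals through Il2rb, was 0.87 and 0.90 higher on its 2 probes. Ccl19, a ligand of Ccr7, read 4.87 and 4.30. Il7 and Il15 were named for their roles after their values were seen. The others at least 2-fold apart in MSCs, named the same way, were Klf4, Tcf7l1 at 1.82 and Tslp at 1.30, which were higher, and Il2ra at -3.32, S1pr4 at -3.31, Tle4 at -1.77 and Jak3 at -1.16, which were lower.

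For each member that passed on all 4 arrays, the gene with the most similar pattern was the one with the smallest Euclidean distance between 4 centred log2 values, among 13766 genes. The nearest to Il7r was Tespa1 at 0.32, to Lef1 AI504432 at 0.49, to Satb1 Jaml at 0.15, to Tcf7 Ms4a6b at 0.14, to S1pr1 Itgb7 at 0.18, to Il2rb Hid1 at 0.30, to Ccr7 Tcstv3 at 0.13 and to Klf2 Dnah2 at 0.10. Tespa1 encodes a thymocyte signaling protein and read 1.67, 1.31, -0.20 and -4.23 in Wt and Sipa1-/- CD8+ T cells and Wt and Sipa1-/- MSCs. Itgb7 encodes the integrin beta 7 chain and, like S1pr1, was near level between genotypes, at 6.09 and 6.06 in CD8+ T cells and 1.00 and 1.07 in MSCs. Dnah2 was dim, at -3.02 and -3.41 in CD8+ T cells and -5.77 and -4.68 in MSCs. The lowest signal well above background on the Wt MSC array was -5.86. Tcstv3 read -3.01 and -4.63 in MSCs. Il7r and Lef1 had larger distances than the other 6 members. With 4 arrays, the distance describes these arrays only.

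**Figure D5:**
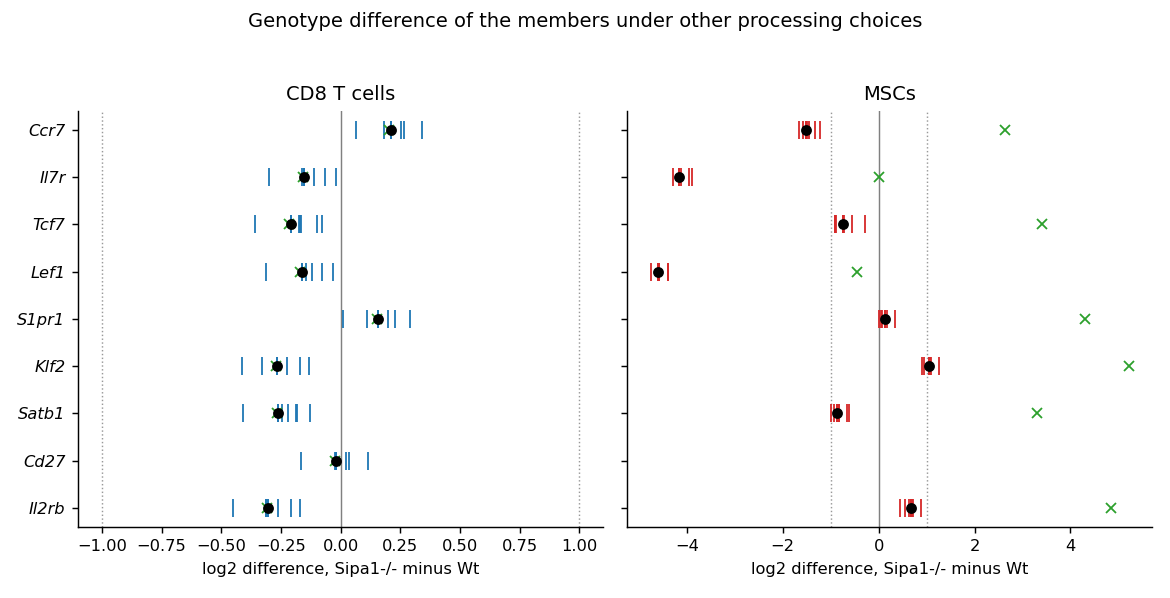
Log2 difference between Sipa1-/- and Wt (x axis, scales differ) of each member as reported (black), under other scalings, background corrections, flag rules and probe choices (colored ticks), and relative to the median of the T-cell identity list in CD8+ T cells or the B-lineage list in MSCs (green crosses). In MSCs the ticks for Il7r and Lef1 stay between -4.75 and -3.90, and relative to the B-lineage median Il7r sits at 0.0029 and Ccr7 at 2.64.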

How the data were processed

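RNA of 4 sorted samples was hybridized to Agilent one-color mouse arrays. The deposited scanner values are spot intensities that the authors' software (Feature Extraction 12.0.3.1 per the file headers, 9.1 per the labels) had background-corrected, with no normalization between arrays. The deposited value table holds the same intensities times 1 constant per array (0.941 to 1.34). It is linear and not centred, its column medians were 25.5, 30.9, 41.0 and 52.0, and how the constants were chosen is unknown. No other column was used.

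Each log2 value here is the deposited intensity as log2 minus the 75th percentile over 59305 non-control spots. Flags of the methods (not saturated, uniform spot and background, well above background) had to pass on both arrays of a pair. Spots were averaged per probe and probes per gene. Symbols came from accessions matched to RefSeq, for 57.6% of spots. Where said, a dim probe was set to the lowest signal well above background on its array. That is the lowest passing signal of any spot, so the resulting folds are not strict lower limits. All 4 arrays were on 1 slide with 1 scan protocol, and no spot was saturated. Precision is limited by the number of arrays.

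The members and gene lists were chosen with earlier results of these data known. Named are the members, Sipa1, the 4 genes of each list with the brightest mean signal in the comparison, the nearest pattern gene, genes of the sort gates, markers not above background, and others said to be chosen after their values were seen. The lists were T-cell identity, naive and memory, ligands and partners, effector and resident, B lineage, pan-leukocyte, fibroblast, endothelial, granulocyte, erythroid, NK cell, macrophage, CD4 and regulatory T cell, and lymphatic endothelial and reticular. Summed signals averaged the spots of a probe and added the probes, and sums without Thy1 or Flt1 were chosen after seeing the data. Scaling, background, flags and probe choice were varied. Normexp background correction added an offset of 50 to each corrected signal, which shrinks the folds of dim probes. Python 3.11.15, numpy 2.4.6, pandas 2.3.3 and limma 3.58.1 in R 4.3.3 were used.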

Additional observations from a re-analysis of the deposited data

How the results depend on the processing

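Of 64 counts of members past 2-fold recomputed under 8 other settings, 60 kept within 1.5 times of the reported count. The other 4 concern members at least 2-fold higher in Sipa1-/- MSCs, 1 as reported. It was 0 with arrays centred on their median and 0 with normexp on median spot signals, where Klf2 fell just under 2-fold. It was 2 with flags needed on 1 array and 2 with no flags, where Cd27 entered at 1.42. Many of the 60 were counts of 0 that stayed 0. Of the recomputed log2 differences and medians, 170 stayed within 0.0585 of the reported value and 149 moved further. Another 2, both taken against the B-lineage median, went from at least 2-fold to the other sign. Klf2 in Sipa1-/- CD8+ T cells over MSCs was under 2-fold in the authors' table, at 0.82, and Satb1 in MSCs just passed 2-fold with median centring. Measured against the B-lineage median in MSCs (-4.16), 1 constant is subtracted from every member. Any gene less far down than that median then turns positive, whatever its cause. Ccr7 went from -1.52 to 2.64 and Il7r from -4.16 to 0.0029, and Tcf7 and Satb1 also turned positive. These sign changes follow from the subtraction and test nothing. Under the other settings the only sign change was Cd27 in CD8+ T cells, from -0.17 to 0.11. Il7r in MSCs ran from -4.30 to -3.90, Lef1 from -4.75 to -4.40 and Ccr7 from -1.66 to -1.22. In CD8+ T cells the members' median ran from -0.31 to -0.03. The median of CD8+ T cells over MSCs in Sipa1-/- was 5.79 as reported and 4.95 with normexp. Over all genes, the median shifted by -0.15 in CD8+ T cells and -0.14 in MSCs with median centring and by 0.13 and 0.21 with the authors' table, and by 0.23, 0.22, -0.45 and -0.53 for the cell-type differences. The share of higher among 2-fold genes was 65.5% in CD8+ T cells as reported, 52.5% with median centring, 76.3% in the authors' table and 52.2% with normexp, and in MSCs 63.1% and 74.1% in the authors' table. For cell types it was 42.6%, 54.5% and 23.4% in Wt and 46.0%, 57.1% and 23.8% in Sipa1-/- as reported, with median centring and in the authors' table. Genes 2-fold higher and lower in CD8+ T cells were 381 and 201 as reported, 685 and 371 with flags on 1 array, 1059 and 633 with none, and 108 and 99 with normexp. Those higher in MSCs were 2958 and 1829 with normexp. Those higher in CD8+ T cells than MSCs were 1821 in Wt and 2671 in Sipa1-/-, and 1082 and 1357 in the authors' table. Those lower were 2457 and 3131, 3898 and 4739 with flags on 1 array and 4185 and 5019 with none. The cause of these changes was not tested. No paired analysis was possible because a condition was measured on 1 array only, so that none could be left out. Mean spot signals were not used here. Signal over background limits Cd27 and both Tcf7 probes in MSCs.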
